A study of Mus musculus with 8 samples.

Results

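The 39 Hox genes of the mouse and 3 limb-type genes, Pitx1, Tbx4 and Tbx5, were followed in cultured knee chondrocytes. They were taken by gene symbol, with no filter on their level, and made up 42 of the 24067 genes in the deposited table. The libraries came from primary chondrocytes, the cells that make cartilage, of ICR mice aged 5 days, isolated from the lower end of the femur and the upper end of the tibia. One group of 4 libraries was made after transfection with 50 nM of a miR-204 mimic, and the other 4 after transfection with 50 nM of the control miR-Ctrl. Transfection took 24 h and was followed by another 24 h before harvest, and both groups were kept at 3% oxygen. The labels number the libraries 1 to 4 in each group and do not say whether they came from separate animals or cultures. The design compares the mimic with its control.

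Hox genes encode homeodomain transcription factors, lie in 4 clusters and give cells a position along the body and limb axes. Paralogs, which share a number, lie at matching places in different clusters, and high-numbered genes act towards the end of the limb. In mouse limbs, Hox9 and Hox10 genes act in the upper segment, Hox11 genes in the middle segment and Hox13 genes in the hand and foot. Pitx1 and Tbx4 are expressed in the developing hindlimb and Tbx5 in the forelimb. A microRNA binds transcripts through its seed, a short stretch near its 5′ end, and lowers those with a matching site in the 3′ UTR.

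The mature mouse miR-204-5p and sites for it are shown because they name the members that the mimic could bind. The miRNA is from RefSeq (GRCm38.p6, chr19:22750610-22750631, plus strand), with the seed, bases 2 to 8, in capitals. The 8mer sites were found in GENCODE 3′ UTRs on build mm10, with the bases that match AAAGGGAA in capitals. They are given 5′ to 3′ on the transcribed strand, with Jarid2, a Polycomb partner that was lower in the paired fit, as the fourth site. Ash1l, Cbx8, Evx2, Lhx9, Meis3, Msx2 and Shox2, from the lists of other genes, also held an 8mer and are not printed.
mmu-miR-204-5p: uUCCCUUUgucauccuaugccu
Hoxa3, chr6:52169249-52169276, minus strand: aatttatttgAAAGGGAAataaaattcc
Hoxa7, chr6:52215556-52215583, minus strand: gagaaaaaagAAAGGGAAagaaaaaaag
Hoxc8, chr15:102993744-102993771, plus strand: catactacctAAAGGGAAcctgcaataa
Jarid2, chr13:44921238-44921265, plus strand: gtggaataaaAAAGGGAAactgttttca

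Levels are in FPKM, fragments divided by transcript length and by the library's mapped fragments, so genes can be compared per length. Chondrocyte markers were high in every library: the 8 markers in the table summed to 11951 to 28719 FPKM with miR-204 and to 11988 to 36564 with miR-Ctrl. By replicate number these sums averaged 24913, 11969, 32641 and 24233 FPKM for numbers 1 to 4. All 7 markers of tendon, ligament and synovium were at 1 FPKM or more and summed to 70.0 to 104 FPKM with miR-204 and 55.1 to 88.8 with miR-Ctrl. Skeletal muscle, endothelium and skin each had 0 markers at 1 FPKM, with Myod1, Pax7, Pecam1, Cdh5, Krt5 and Krt14 under 0.1 FPKM. Depth relative to miR-Ctrl replicate 1 was lowest in the replicate 2 libraries, at 0.798 with miR-204 and 0.772 with miR-Ctrl, and between 0.929 and 0.962 in the other 5.

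Of the 42 members, 19 averaged at least 1 FPKM over the 8 libraries and are called present. Another 10 lay between 0.1 and 1 FPKM and are called low, and 13 lay under 0.1 FPKM and are called absent at this depth. Of all genes in the table, 48.2% averaged at least 1 FPKM and 40.2% less than 0.1. The clusters were unequal in this: present genes numbered 7 of 11 in HoxA, 0 of 10 in HoxB, 6 of 9 in HoxC and 3 of 9 in HoxD. All 10 HoxB genes were absent. The lowest present genes were Hoxc11 (1.02 FPKM) and Hoxc4 (1.03), and the highest low gene was Hoxc13 (0.941).

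**Figure D1:**
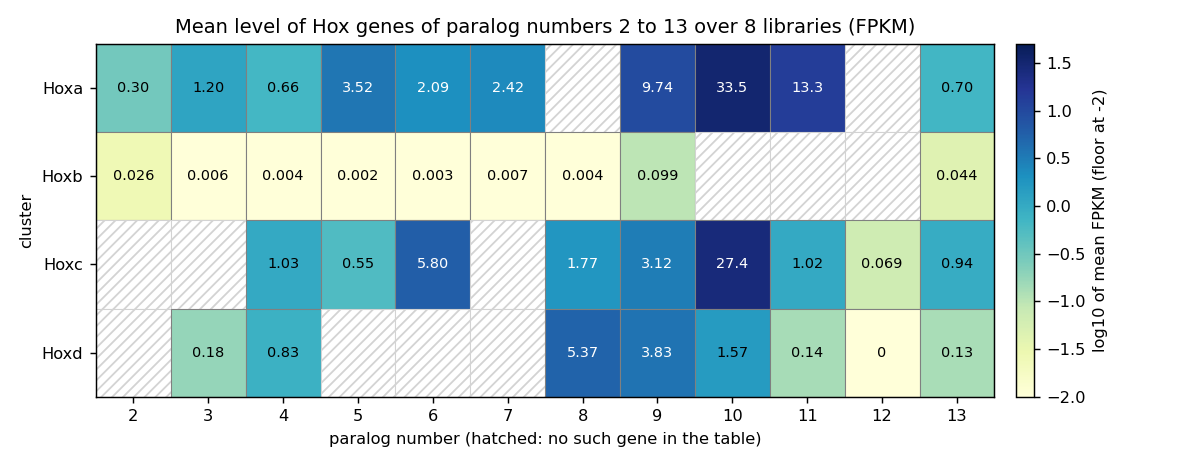
Mean FPKM over the 8 libraries for the Hox genes of numbers 2 to 13, by cluster (rows) and paralog number (columns), shaded by the log10 of the mean; hatched cells have no gene in the table. Cells with the highest levels are Hoxa10 (33.5) and Hoxc10 (27.4), and the HoxB row is under 0.1 throughout.

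Pitx1, a homeodomain factor that specifies hindlimb, was the highest member at 41.5 ± 3.35 FPKM (mean ± SD, 8 libraries), above 86.8% of the 11612 tested genes. Its values for replicates 1 to 4 were 44.9, 38.4, 42.0 and 46.9 FPKM with miR-204 and 38.5, 39.8, 37.8 and 43.4 with miR-Ctrl. The groups overlapped, and replicate 4 was the highest library of each. Pitx1 lies on chr13:55825051-55836192, minus strand, and the antisense gene Gm47071 overlaps it.

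Tbx4, the T-box factor of the hindlimb, had 7.88, 7.98, 6.27 and 8.87 FPKM with miR-204 and 6.44, 8.26, 5.77 and 7.75 with miR-Ctrl. Replicate 3 was the lowest library in each group. Tbx5, its forelimb counterpart, was also present, at 2.11, 1.89, 2.77 and 2.57 FPKM with miR-204 and 1.87, 1.67, 2.03 and 1.97 with miR-Ctrl. Replicate 2 was its lowest library in each group, and its groups overlapped. In each library Pitx1 and Tbx4 were above Tbx5. The ratio of Pitx1 to Tbx5 per length ran from 15.2 to 21.3 with miR-204 and from 18.6 to 23.9 with miR-Ctrl. That of Tbx4 to Tbx5 ran from 2.27 to 4.22 with miR-204 and from 2.83 to 4.95 with miR-Ctrl. Tbx5 lay above 11.7% of tested genes and Tbx4 above 42.8%. Isl1, a factor upstream of hindlimb outgrowth in mouse, averaged 0.0288 FPKM and was not tested.

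HoxA, on the minus strand of chromosome 6, held 55.7 ± 1.23% of the summed Hox FPKM, and its genes at numbers 9 to 11 stood highest. Hoxa10 had 31.3, 35.8, 34.7 and 35.3 FPKM with miR-204 and 27.2, 35.3, 33.5 and 34.9 with miR-Ctrl. Replicate 1 was its lowest library in each group and the groups overlapped. Hoxa11, a gene of the middle limb segment, had 12.8, 13.3, 14.6 and 15.2 FPKM with miR-204 and 10.8, 13.3, 13.1 and 12.9 with miR-Ctrl. Hoxa9 had 9.26, 10.0, 10.4 and 11.4 FPKM with miR-204 and 8.70, 9.64, 8.10 and 10.4 with miR-Ctrl. Both genes overlapped between the groups, and replicate 4 was the highest library of each group for Hoxa9. Within a library, Hoxa10 was 2.32 to 2.70 times Hoxa11 per length and 3.10 to 4.14 times Hoxa9.

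The cluster's level dropped at its 5′ end. Hoxa13, the foot and hand gene next to Hoxa11, ranged from 0.565 to 0.842 FPKM with miR-204 and from 0.564 to 0.998 with miR-Ctrl, and Hoxa11 was 10.9 to 25.9 times higher. Towards the 3′ end, Hoxa5, Hoxa6 and Hoxa7 averaged 3.52 ± 0.528, 2.09 ± 0.563 and 2.42 ± 0.383 FPKM over the 8 libraries, and Hoxa3 averaged 1.20 ± 0.212. Hoxa4 (0.663) and Hoxa2 (0.303) were low. Hoxa11os, a noncoding transcript on the strand opposite Hoxa11, averaged 8.34 FPKM. Hoxaas3 overlaps both Hoxa3 and Hoxa7 on the opposite strand. The library kit keeps the strand, but the sources used here do not say whether counting used it, so reads of a gene and of its antisense partner cannot be told apart.

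HoxC (chr15:102921103-103036852, plus strand) held 34.2 ± 1.06% of the summed Hox FPKM. Hoxc10, which in mouse limbs is a hindlimb gene, had 27.5, 28.0, 29.0 and 29.7 FPKM with miR-204 and 23.7, 26.7, 25.8 and 28.6 with miR-Ctrl. The groups overlapped, with the library of replicate 1 lowest in each. Its neighbour Hoxc11, also a hindlimb gene, was far lower, at 0.650, 1.44, 0.590 and 0.732 FPKM with miR-204 and 1.13, 1.65, 0.894 and 1.08 with miR-Ctrl. Replicate 2 was highest in each group, and in each of the 4 replicate numbers the miR-204 library was below its miR-Ctrl library. Per length, Hoxc10 was 16.2 to 49.3 times Hoxc11 in the same library and 7.81 to 9.95 times Hoxc9 on its other side. Hoxc12 was absent, at 0.0685 FPKM on average.

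Hoxc13, which acts in hair and nail, varied most between replicate numbers among the present and low members. It had 1.02, 1.76, 0.342 and 0.775 FPKM with miR-204 and 0.768, 1.83, 0.283 and 0.745 with miR-Ctrl. Both replicate 2 libraries were above the other 6 and both replicate 3 libraries below them, whichever small RNA was used. The skin keratins Krt5 and Krt14 averaged 0.0438 and 0.0167 FPKM in the same libraries. Among the other HoxC genes, Hoxc6 averaged 5.80 ± 0.802 FPKM, Hoxc9 3.12 ± 0.376, Hoxc8 1.77 ± 0.221 and Hoxc4 1.03 ± 0.194 over the 8 libraries, and Hoxc5 (0.548) was low.

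HoxD (chr2:74668310-74765142, plus strand) held 9.93 ± 1.47% of the summed Hox FPKM, and there the mean level was lower at each number from 8 to 12. Hoxd8 had 4.27, 4.80, 6.71 and 4.49 FPKM with miR-204 and 5.85, 4.50, 6.57 and 5.74 with miR-Ctrl. Hoxd9 had 4.33, 2.82, 4.67 and 4.17 FPKM with miR-204 and 3.73, 2.62, 3.68 and 4.64 with miR-Ctrl. Hoxd10 had 1.89, 1.26, 1.41 and 2.23 FPKM with miR-204 and 1.52, 0.996, 1.34 and 1.92 with miR-Ctrl. Hoxd9 and Hoxd10 were lowest in replicate 2 of each group and Hoxd8 was highest in replicate 3. Hoxd11 and Hoxd13 averaged 0.136 and 0.134 FPKM, and Hoxd12 was listed at 0 in all 8 libraries. Hoxd4 (0.833) and Hoxd3 (0.177) were low and Hoxd1 was absent. Per length, Hoxd10 was 8.79 to 19.2 times Hoxd11 in the same library.

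HoxB (chr11:96194316-96368256, plus strand) held 0.162 ± 0.0530% of the summed Hox FPKM. Hoxb9 was its highest gene, at 0.126, 0.0621, 0.0720 and 0.148 FPKM with miR-204 and 0.128, 0.0381, 0.0644 and 0.154 with miR-Ctrl. Both groups were low in replicates 2 and 3 and overlapped. Hoxb13 averaged 0.0437 FPKM and Hoxb2 0.0265, and Hoxb1 was listed at 0 in all 8 libraries. Each library was scaled to the depth of miR-Ctrl replicate 1. For 10 of the 13 absent members of all clusters, every scaled value was then a whole multiple, to within 0.05 of a step, of the gene's own smallest scaled value above 0. The largest multiple was 4. Hoxb5 and Hoxb6, which are among the 10, were above 0 in 1 library each, so for them a whole multiple was fixed in advance. Hoxb3, for example, was at 1 step in 6 libraries and at 0 in 2, and its values as deposited were 0.00844, 0.00987, 0.00821 and 0.00819 FPKM with miR-204 and 0, 0, 0.00850 and 0.00825 with miR-Ctrl. Hoxb9 was not among the 10, with 1.68 and 2.35 steps in miR-204 replicates 2 and 3. Whole steps would arise from a few fragments per gene and library, but no read totals were given to check this. The precision of the absent members' values is therefore unknown, and they were left out of the main test between the groups.

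**Figure D2:**
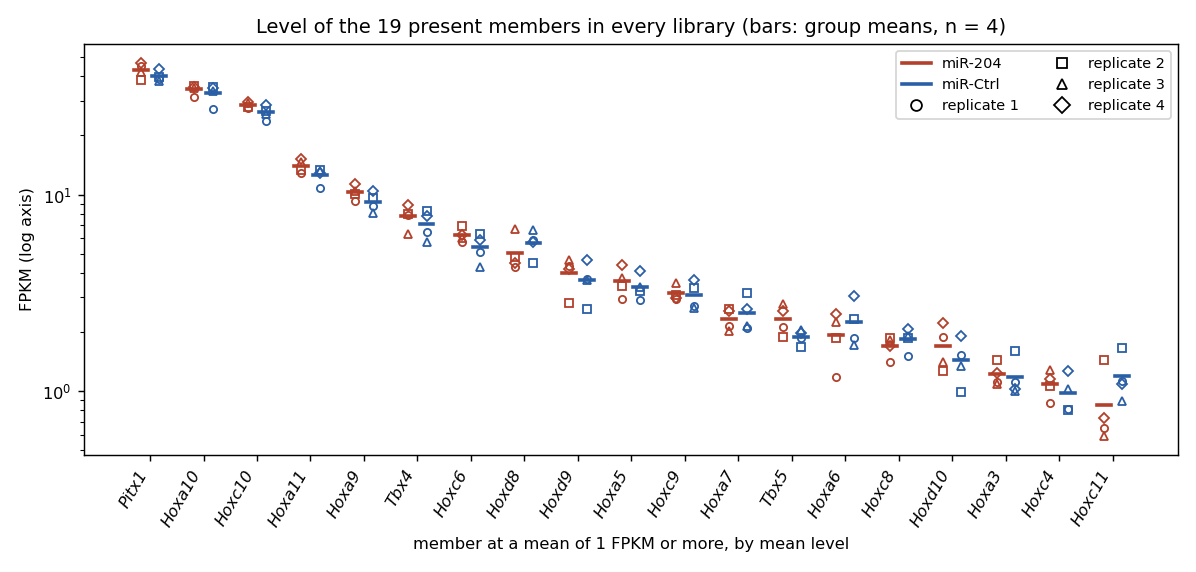
FPKM on a log axis for the present members in each library, miR-204 left of miR-Ctrl, with a shape for each replicate number and bars at the group means (n = 4). Pitx1 is above every Hox gene on average (41.5 against 33.5 for Hoxa10), and Tbx5 averages 2.11.

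Read by paralog number, group 10 held 51.2 ± 1.05% of the summed Hox FPKM, group 9 held 13.8 ± 0.909% and group 11 held 11.8 ± 0.449%. Hoxa10 and Hoxc10 alone made up 49.9%, with a range of 48.0% to 51.6% over the libraries. Groups 6 and 8 held 6.46% and 5.88%, group 13 held 1.50% and group 12 held 0.0554%. Paralogs of a number were not alike in level. Hoxa10 was 1.14 to 1.32 times Hoxc10 per length but 15.8 to 35.5 times Hoxd10. Hoxa11 was 8.05 to 24.8 times Hoxc11 and 64.0 to 199 times Hoxd11. Hoxa9 was 67.8 to 253 times Hoxb9.

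The order of the present members by mean FPKM was Pitx1, Hoxa10, Hoxc10, Hoxa11, Hoxa9, Tbx4, Hoxc6, Hoxd8, Hoxd9, Hoxa5, Hoxc9, Hoxa7, Tbx5, Hoxa6, Hoxc8, Hoxd10, Hoxa3, Hoxc4 and Hoxc11. The ranges over the 8 libraries did not overlap between Pitx1 and Hoxa10 or between Hoxc10 and Hoxa11. Every other pair of neighbours in this order overlapped.

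The mean cluster shares differed between the groups by less than the SD over the 8 libraries. HoxA held 55.73% with miR-204 and 55.74% with miR-Ctrl, HoxC held 34.4% and 33.9%, HoxD 9.69% and 10.2%, and HoxB 0.154% and 0.169%. Summed over all 39 genes, Hox FPKM was 116, 125.6, 128.4 and 131.7 with miR-204 and 106.2, 123.2, 115 and 129.4 with miR-Ctrl. In FPKM each miR-204 library was above the miR-Ctrl library of its number, but the groups overlapped. As a share of all FPKM in the library this held for numbers 1 to 3 and not for number 4, at 0.0307% with miR-204 and 0.0311% with miR-Ctrl.

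The 19 present members were compared between miR-204 and miR-Ctrl with limma on log2(FPKM + 1), with p-values adjusted over all 11612 tested genes. Fold changes on this scale understate changes of low genes. The members had to average 1 FPKM over both groups, and the other 23 were not tested in this fit. No member passed: 0 were higher and 0 lower, against 0.0258% and 0.181% of all tested genes, and 0 members were under an unadjusted p of 0.05, where 8.59% of tested genes were. The smallest unadjusted p was 0.0794, for Tbx5, and adjusted p-values ran from 0.639 to 0.982. The log2 fold changes lay between −0.25 (Hoxc11) and 0.20 (Tbx5). Their median was 0.086, against 0.064 for all tested genes. They were above 0 for 14 members, where 74.1% of all tested genes were. With each library centred on its own median the members' median was 0.022, against 0.00012 for all genes. In no member were the groups free of overlap, against 4.32% of tested genes higher and 1.58% lower.

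The replicate numbers paired the libraries, so the comparison was also made within equal numbers. With the number as a block, limma again called 0 members higher and 0 lower, against 12.4% and 2.83% of all tested genes. At an unadjusted p of 0.05, 6 members were higher and 1 was lower, where 35.6% of tested genes passed in either direction. Without both replicate 2 libraries, this paired fit called 4 members higher, where 24.5% of tested genes were. They were Hoxa11 (log2 fold change 0.20, adjusted p = 0.0163), Pitx1 (0.16, adjusted p = 0.0258), Tbx4 (0.18, adjusted p = 0.0355) and Tbx5 (0.23, adjusted p = 0.0418). In all 4 numbers, 7 members were higher with miR-204, namely Hoxa5, Hoxa9, Hoxa10, Hoxc6, Hoxc10, Hoxd10 and Tbx5, against 33.9% of all tested genes.

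Hoxc11 was the only member lower in all 4 numbers, against 7.44% of tested genes. Its level with miR-204 was 0.575, 0.870, 0.660 and 0.677 times that of the miR-Ctrl library of numbers 1 to 4. The log2 fold change was −0.25, with a paired 95% interval from −0.41 to −0.092, and the adjusted p was 0.721 without the block and 0.0518 with it. With the block and centred libraries Hoxc11 passed, at −0.32 and an adjusted p of 0.0393, while 0 members were higher, and 4.32% of tested genes were lower and 4.99% higher there. With the block and quantile normalization it passed at −0.37 and an adjusted p of 0.0412, and 4.62% of tested genes were lower and 4.78% higher. Hoxc11 lay close to the 1 FPKM filter, fell under it without the replicate 2 libraries, and had no miR-204 site in its 3′ UTR.

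For the limb-type genes the paired 95% intervals of the log2 fold change ran from −0.015 to 0.23 for Pitx1, from −0.011 to 0.26 for Tbx4 and from 0.062 to 0.34 for Tbx5. For Hoxa10 the interval was −0.035 to 0.17, for Hoxc10 0.024 to 0.22 and for Hoxa11 0.028 to 0.26. Hoxa11 had adjusted p-values of 0.672 without the block and 0.0875 with it. Summed over the 3 macrophage markers in the table, levels were 2.82 to 4.96 FPKM with miR-204 and 0.623 to 2.39 with miR-Ctrl. Cd68 alone carried this, at 2.76 to 4.75 FPKM with miR-204 and 0.545 to 2.22 with miR-Ctrl. Csf1r was at 0.0417 to 0.193 FPKM with miR-204 and 0.0721 to 0.147 with miR-Ctrl, and Ptprc averaged 0.0110. The part of Cd68 in the members' values was not tested. In bulk RNA, fewer cells of a type and less RNA per cell cannot be told apart.

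**Figure D3:**
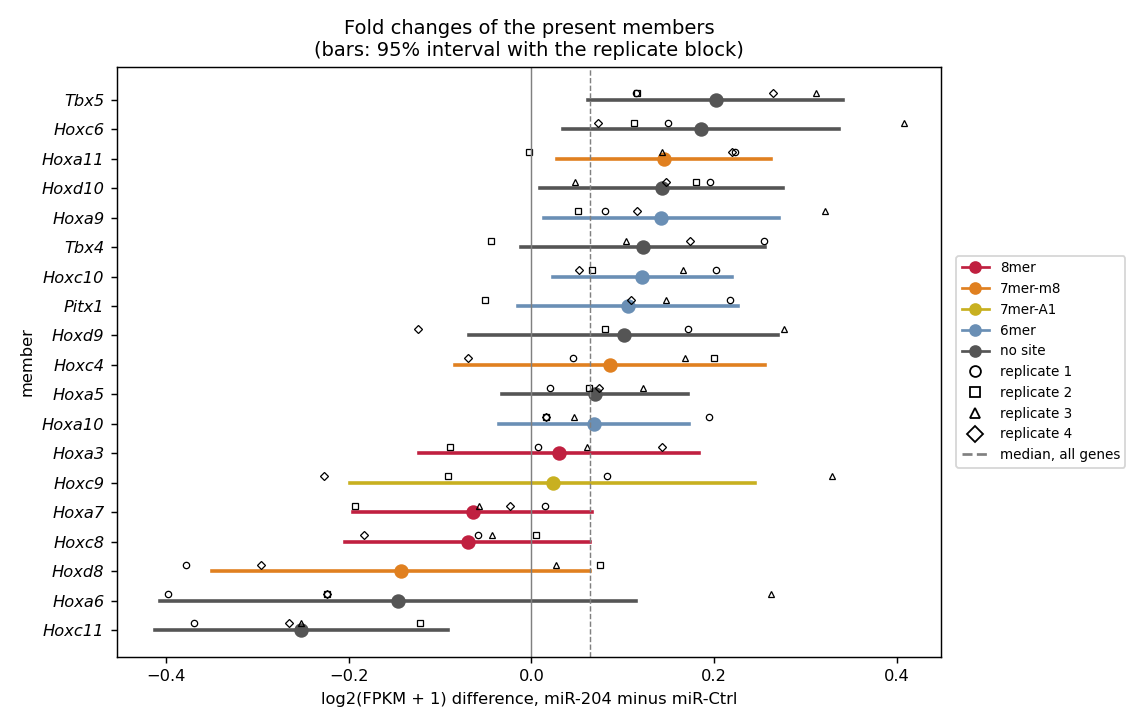
Log2(FPKM + 1) difference, miR-204 minus miR-Ctrl, for each present member, as the mean (filled point), the paired 95% interval (bar) and the difference within each replicate number (open marks). Colours give the best miR-204 site. Hoxc11 lies at −0.25 and Tbx5 at 0.20, and the dashed line is the median of all tested genes.

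Matches to the miR-204-5p seed were searched in the longest 3′ UTR of each gene. The 8mer searched was AAAGGGAA, the 7mer-m8 AAAGGGA, the 7mer-A1 AAGGGAA and the 6mer AAGGGA, on the transcribed strand only, and a gene was placed by its best match. Of the 42 members, 10 (23.8%) held a 7mer or 8mer, and of the 11209 tested genes with a 3′ UTR, 24% did. Of the 19 present members, 7 (36.8%) did. Hoxa3, Hoxa7 and Hoxc8 held the 8mers printed above. Hoxa11, Hoxc4 and Hoxd8 held a 7mer-m8 and Hoxc9 a 7mer-A1, while Hoxa9, Hoxa10, Hoxc10 and Pitx1 had a 6mer alone. The other 8 present members had no match.

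The 3 members with an 8mer were not lower by the test. Hoxa3 had 1.12, 1.44, 1.09 and 1.24 FPKM with miR-204 and 1.11, 1.60, 1.00 and 1.03 with miR-Ctrl, a log2 fold change of 0.030 with a paired interval of −0.12 to 0.18. Hoxa7 had 2.14, 2.62, 2.02 and 2.55 FPKM with miR-204 and 2.10, 3.14, 2.14 and 2.61 with miR-Ctrl. Its log2 fold change was −0.064 (−0.19 to 0.066). Hoxc8 had 1.40, 1.87, 1.83 and 1.70 FPKM with miR-204 and 1.50, 1.86, 1.91 and 2.07 with miR-Ctrl. Its log2 fold change was −0.070 (−0.20 to 0.065). All 3 overlapped between the groups. Among all 776 tested genes with an 8mer, the median log2 fold change was −0.0054, and 17.5% were lower in the paired fit. Among the 7076 tested genes with no match the median was 0.078 and 0.905% were lower.

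**Figure D4:**
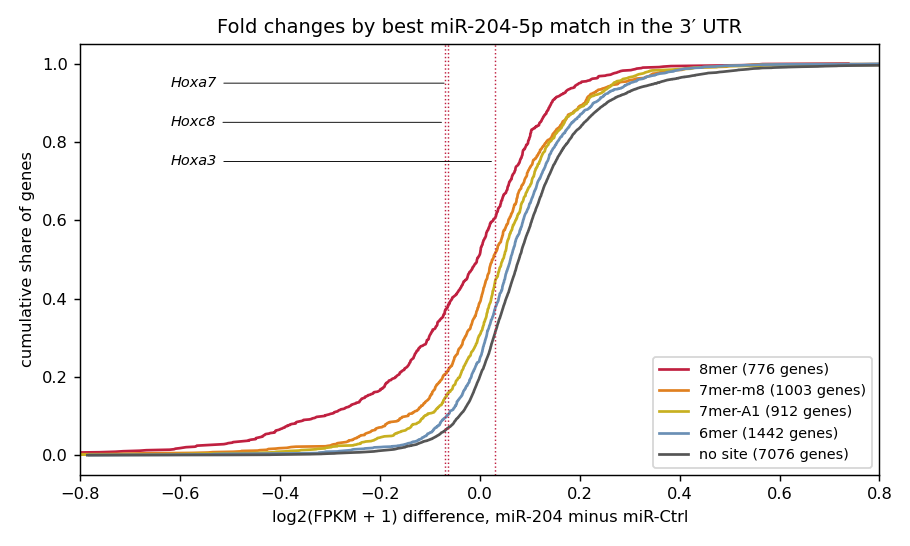
Log2(FPKM + 1) difference, miR-204 minus miR-Ctrl, by best miR-204 site in the 3′ UTR, as the cumulative share of all tested genes in each class. Dotted lines mark Hoxa3 (0.030), Hoxa7 (−0.064) and Hoxc8 (−0.070), the members with an 8mer, and the median of all genes is −0.0054 with an 8mer and 0.078 with no match.

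Replicate number held more of the members' sum of squares than the small RNA did. It has 4 levels against 2, which gives it a larger share even without an effect, and no allowance was made for this. In log2 values the replicate number held a median of 71.2% of the sum of squares of the 19 present members, against 73.6% for all tested genes. The small RNA held 11.2% for the members and 10.2% for all tested genes. The ratio of the highest to the lowest number's mean had a median of 1.38 for the members and 1.26 for all tested genes. Among these present members the ratio was 2.08 for Hoxc11 and 1.84 for Hoxd10, but 1.14 for Hoxc10 and 1.15 for Pitx1. Among the low members, which are outside the 19, it was 5.74 for Hoxc13, 2.63 for Hoxd11 and 2.27 for Hoxd13. Hoxd11 and Hoxd13 averaged 0.136 and 0.134 FPKM, so their ratios rest on low values of unknown precision. Both replicate 2 libraries were above the other 6 for 5 of 19 present members (Hoxa3, Hoxa7, Hoxa10, Hoxc6 and Hoxc11), as they were for 30.5% of all tested genes. They were below the other 6 for Hoxd9 and Hoxd10, as for 8.98% of tested genes. Both replicate 4 libraries were above the other 6 for 4 of 19 (Hoxa5, Hoxa6, Hoxa9 and Hoxd10), against 4.89% of tested genes. Both replicate 1 libraries were below the other 6 for 4 of 19 (Hoxa5, Hoxa10, Hoxa11 and Hoxc8), against 5.34%. Replicate 3 was above for Hoxd8, against 5.94%, and below for Tbx4, against 16.8%.

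Markers moved with the number too. Replicate 2 had the lowest sum of chondrocyte markers, given above, and the highest sum of osteoblast markers, which averaged 11.6, 29.8, 9.83 and 12.5 FPKM for numbers 1 to 4. The osteoblast markers did not move together. Ibsp, a bone matrix protein gene, was at 14.3 FPKM in replicate 2 with miR-204 and 12.1 with miR-Ctrl, against 0.284 to 3.57 in the other 6 libraries. Sp7, the osteoblast transcription factor, was at 2.16 and 1.47 FPKM there, and at 1.80 to 3.79 in the other 6. Tendon, ligament and synovium markers averaged 96.4, 84.7, 62.6 and 85.7 FPKM. The part of these in the pattern of Hoxc13, Hoxc11, Hoxd9 and Hoxd10 was not tested.

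**Figure D5:**
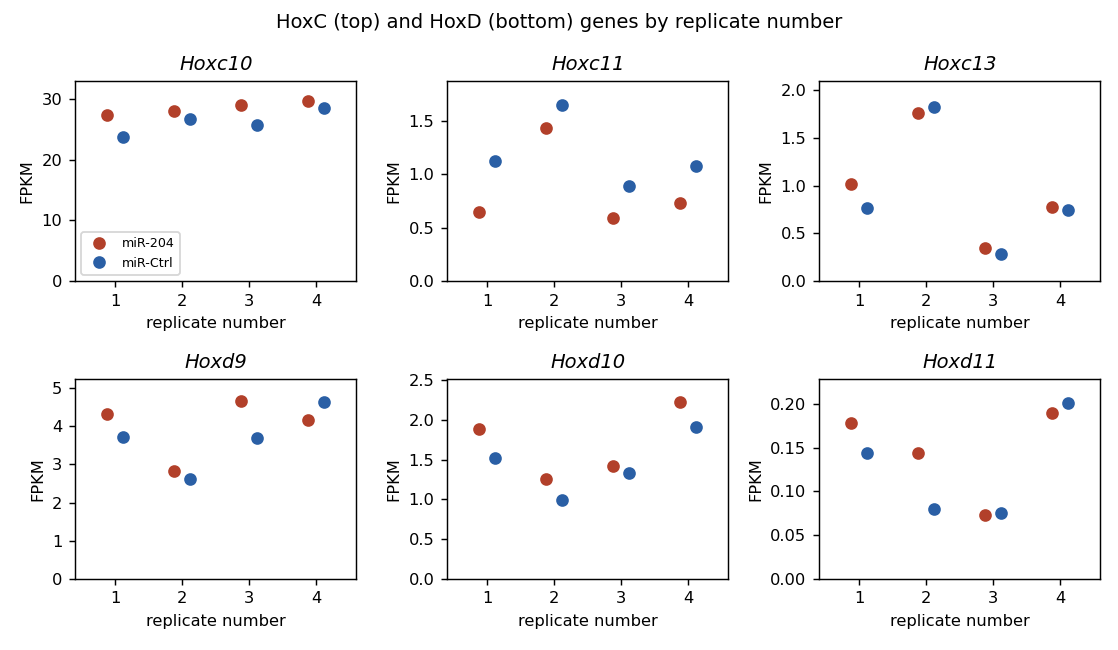
FPKM by replicate number for 3 HoxC genes (top row) and 3 HoxD genes (bottom row), with miR-204 and miR-Ctrl as separate points. Hoxc13 averages 1.80 FPKM in number 2 and 0.313 in number 3, while Hoxc10 differs by 1.14 times between its highest and lowest number.

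Genes that work with or on Hox proteins were read from the same fits, as counts only. None of them passed without the block. Of the Hox cofactors, 7 of 9 were tested, 0 were under an unadjusted p of 0.05, and their median log2 fold change was 0.084. Pbx3, which encodes a homeodomain partner of Hox proteins on DNA, was higher in the paired fit, as were 12.4% of all tested genes. It averaged 4.02 ± 0.600 FPKM with miR-204 and 3.16 ± 0.684 with miR-Ctrl (SD, n = 4 each), a log2 fold change of 0.28 with a paired limma adjusted p of 0.0172. It did not pass without number 1, 3 or 4, where paired limma adjusted p-values ran from 0.0670 to 0.0850. Pbx2 had the highest level of the list, at 11.99 ± 0.882 FPKM with miR-204 and 11.2 ± 0.324 with miR-Ctrl, and did not pass. Meis1, another partner, averaged 1.81 ± 0.137 FPKM with miR-204 and 1.84 ± 0.324 with miR-Ctrl.

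Of the Polycomb and Trithorax regulators, which hold Hox genes silent or active, 20 of 21 were tested. Without the block 0 passed and 4 were under an unadjusted p of 0.05, where 8.59% of all tested genes were, and their median log2 fold change was 0.034. In the paired fit 1 was higher and 2 were lower, against 12.4% and 2.83% of all tested genes. Jarid2, a partner of the Polycomb methyltransferase whose 8mer is printed above, averaged 2.10 ± 0.166 FPKM with miR-204 and 3.08 ± 0.387 with miR-Ctrl. Its log2 fold change was −0.39 and its adjusted p 0.00986 in the paired limma fit and 0.209 without the block. Kdm6b, which removes the mark that enzyme sets, averaged 6.80 ± 0.328 FPKM with miR-204 and 7.96 ± 0.680 with miR-Ctrl (−0.20, paired limma adjusted p = 0.0286). Ezh2, the methyltransferase itself, averaged 7.33 ± 0.561 FPKM with miR-204 and 5.83 ± 0.948 with miR-Ctrl (0.29, paired limma adjusted p = 0.0210). Jarid2 did not pass in the paired fit without number 4 (adjusted p = 0.0655). Other genes of the lists with an 8mer did not pass in either fit. Their log2 fold changes were −0.021 for Ash1l, −0.017 for Cbx8, −0.13 for Meis3, 0.095 for Lhx9 and 0.063 for Shox2. Evx2 and Msx2, which also held an 8mer, were not tested. Ezh2 and Kdm6b did not pass without number 1, 3 or 4, with paired limma adjusted p-values from 0.0606 to 0.0850 for Ezh2 and from 0.0764 to 0.148 for Kdm6b.

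Other limb patterning factors were expressed but did not pass in either fit: of 27, 11 were tested, with 0 under an unadjusted p of 0.05 without the block and 3 with it, where 8.59% and 35.6% of all tested genes were. Tbx15, a T-box factor of limb skeletal growth, averaged 62 ± 3.41 FPKM with miR-204 and 64.6 ± 9.03 with miR-Ctrl. Shox2, which is needed for the upper limb segment in mouse, averaged 30.9 ± 4.95 FPKM with miR-204 and 29.4 ± 4.05 with miR-Ctrl. Of 13 retinoid genes that act upstream of Hox genes, 7 were tested and 0 passed in either limma fit. Under an unadjusted p of 0.05 there were 2 with the block and 0 without it, against 35.6% and 8.59% of all tested genes. Rarg, a retinoic acid receptor of cartilage, was the highest at 59.3 ± 6.36 FPKM with miR-204 and 60.7 ± 4.86 with miR-Ctrl. Of the noncoding transcripts of the clusters, 4 of 16 were in the table and 2 were tested, Hoxa11os and Mira, and 0 passed or were under an unadjusted p of 0.05 in either limma fit. Hoxa11os averaged 8.55 ± 0.429 FPKM with miR-204 and 8.13 ± 0.588 with miR-Ctrl. Hotair, a noncoding transcript of HoxC, averaged 0.212 ± 0.0557 FPKM with miR-204 and 0.140 ± 0.0668 with miR-Ctrl and was not tested.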

How the data were processed

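RNA of 8 libraries, 4 per group, was made with a stranded polyadenylated RNA kit, per the labels' protocols. The deposited table gives 1 FPKM value per gene and library, made by the authors with TopHat (version not given in the sources used here) and Cufflinks 2.2.1 on build mm10, per the submitters' processing notes. The sources used here give neither read totals nor the treatment of shared reads. FPKM is not a count, so no count model was used. The table held 0 columns of other samples. Annotated ranges of some members, introns included, overlap on the same strand. They are those of Hoxa3 with Hoxa4, Hoxa5 and Hoxa6, of Hoxc5 with Hoxc6, Hoxc8, Hoxc9 and Hoxc10, and of Hoxd3 with Hoxd4. Exons in the basic GENCODE transcripts did not overlap between members. Some overlapped exons of other genes on the same strand. These were Gm28308 with Hoxa2 and Hoxa3, Gm28230 with Hoxd3 and Hoxd4, and Gm28309 with Hoxd10 and Hoxd11. Whether the values of these members share reads, with each other or with these other genes, is not known.

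The 11612 genes whose average reached 1 FPKM were fitted in R 4.3.3 with limma 3.58.1. Values were log2(FPKM + 1), the prior was trended, with Benjamini-Hochberg adjustment at 0.05, two-sided. The main fit had no block, and the replicate number as a block was the alternative. Library deviations from their group mean correlated within equal numbers at 0.44, 0.82, 0.76 and 0.62 for numbers 1 to 4, and at most at 0.32 with another number, across genes. Every such pair was over 0.1, so the numbers paired the samples. This pairing rests on the values, as the labels do no more than number the libraries. The p-values reflect the spread among these libraries alone, and that spread may be technical.

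Relative depth came from the steps between low FPKM values. Gene positions and 3′ UTRs were from GENCODE M21. The fits were tested on simulated data. All present members were named, with up to 4 passing genes and the 2 with the highest mean from each list of other genes. Isl1, Meis1, Hotair and the skin keratins were named after their values were seen. The members and lists were chosen with earlier results of these data known. Some genes among the members and lists are counted but not reported here by name.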

Additional observations from a re-analysis of the deposited data

Results flagged for a closer look

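Of the 38 sets of 4 libraries of a present member and group, 2 had a library far from the other 3, where chance gives about 1 in 20. Hoxa11 in miR-Ctrl replicate 1 was at 10.8 FPKM, and the other 3 miR-Ctrl libraries were at 12.9, 13.1 and 13.3. Hoxc11 in miR-204 replicate 2 was at 1.44 FPKM, and the other 3 miR-204 libraries were at 0.590, 0.650 and 0.732. Replicate 2 was also the highest miR-Ctrl library for Hoxc11, at 1.65 FPKM.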

How the results depend on the processing

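All tested genes numbered 3 higher and 21 lower without the block, and 1436 and 329 with the replicate block. Centring gave 8 and 55, quantile normalization 7 and 66, the block with centring 579 and 502, the block with quantile normalization 555 and 536, the block with a pseudocount of 0.1 1434 and 332, and no filter 0 and 9. Leaving out libraries or replicate numbers, without the block, gave 0 to 4 higher and 0 to 16 lower. With the block, leaving out numbers 1 to 4 gave 137, 2828, 264 and 88 higher and 93, 535, 153 and 82 lower. Among members, 1 was lower under the block with centring or quantile normalization (Hoxc11), and 4 were higher in the paired fit without replicate 2. The block changed no other call on a member. A threshold of 0.1 FPKM made 29 members present in place of 19. Without the block, a filter at 0.1 FPKM tested these 29, and no filter beyond a value above 0 tested 40. In each, 0 members were higher and 0 lower, and 1 was higher at an unadjusted limma p under 0.05. Of all 14400 genes tested with the filter at 0.1 FPKM, 4 were higher and 16 lower.

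Of 485 recomputed fold changes of the 19 members under 26 settings, 26 reversed, in 7 members, all with small values, and 6 passed the threshold. Hoxa3 was at −0.034 with centring and −0.051 with quantile normalization, with or without the block, and at −0.0072 in the paired fit without replicate 4. Hoxc9 was at −0.041 and −0.053, and under quantile normalization Hoxa5 was at −0.0087 and Hoxc4 at −0.018. Leaving libraries out gave −0.016 to 0.12 for Hoxa3, −0.0046 to 0.14 for Hoxa5, −0.12 to 0.020 for Hoxa7, −0.015 to 0.11 for Hoxa10, −0.078 to 0.11 for Hoxc9 and −0.016 to 0.22 for Hoxd9. The cause of these moves was not tested. The other 12 members kept their direction under these settings. Hoxc11 and Hoxc4 fell under the filter when some libraries were left out. With no read totals, the precision of the low and absent members is unknown.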

Other observations

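The table also lists 6 microRNA genes of the Hox clusters. Mir196b, which lies in HoxA, was at 108 FPKM in miR-204 replicate 1 and at 0 in the other 7 libraries. Mir10a, Mir10b, Mir196a-1, Mir196a-2 and Mir615 were at 0 in all 8. Libraries of polyadenylated RNA do not measure mature microRNAs.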
